A study of Rattus norvegicus with 23 samples.

Results

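The lungs of rats that had breathed TiO2 were compared between the end of the exposure (D0) and 28 days later (D28). The members of this comparison were chosen by sample title, 5 arrays of exposed lungs on D0 and 6 arrays of exposed lungs on D28, which made 11 of the 23 arrays of the series. The source label of the D28 arrays repeats day 0, whereas their titles and descriptions give day 28, and the titles were followed. All animals were elderly male F344 rats, described as 19 months old. The exposed rats inhaled TiO2 as a nanostructured aerosol through the nose at 10 mg/m3, for 6 h a day on 5 days a week over 4 weeks, and the control rats breathed filtered air (6 arrays on D0 and 6 on D28). Each array carried RNA of the accessory lobe of 1 rat, and the series holds no array of a sixth exposed rat of D0. The hour of sacrifice is not given in the sources used here, so the hour of the day and the group cannot be told apart. The lung markers Sftpc, the surfactant protein of type II pneumocytes, and Scgb1a1, the secretoglobin of club cells, had median log2 signals of 13.7 and 16.4 on D0 and of 14.0 and 16.3 on D28.

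Poorly soluble particles that reach the alveoli are taken up by macrophages, which release TNF and chemokines and call in other leucocytes. When exposure ends, particles are cleared slowly, and inflammation can subside while tissue is repaired by fibroblasts that lay down collagen and elastin. The lung also holds a circadian clock, in which the activators ARNTL, CLOCK and NPAS2 drive the repressors of the PER, CRY and REV-ERB families through E-box sequences, and PAR bZIP factors such as DBP act through D-box sequences. Levels of such genes swing over the day.

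The 75th percentile of the processed signal of the exposed arrays ran from 1445 to 2763 on D0 and from 1383 to 2714 on D28 before normalisation, and 69.5% to 77.9% of probes were well above background on any array of the series. Expression is given below as log2 signal after quantile normalisation, a difference as D28 minus D0 with its standard error (SE), and every adjusted p is from limma with the Benjamini-Hochberg correction over 23029 genes. A gene was called a DEG at an adjusted p below 0.05 and a fold change of at least 1.5. A bulk lobe cannot tell fewer cells of a type from less RNA per cell.

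In the exposed lungs, 81 of the 23029 genes were DEGs between D0 and D28, or 0.352%. Of these, 32 were under-expressed on D28 (0.139%) and 49 were over-expressed (0.213%). The inflammatory genes Tnf, Sele and Ccl4, the keratin Krt7, the glutathione transferase Gsta1 and the clock repressors Cry1 and Per2 were among those that fell. The collagens Col1a1 and Col3a1, elastin, the cross-linking enzymes Lox and Loxl2 and the hedgehog inhibitor Hhip were among those that rose. Over all genes, the median difference was -0.01 on the log2 scale, and at an unadjusted p below 0.05 the genes lower on D28 numbered 894 (3.88%) and those higher 880 (3.82%). The exposed arrays of D0 and D28 did not overlap for 278 genes in all (1.21%), and 27 of the 32 falls and 43 of the 49 rises were among them. On each of the 4 slides that held exposed lungs of both days, all 81 DEGs kept the direction of the whole comparison. They were chosen from these same arrays, and a lack of overlap fixes the direction on every slide, so this is a description and no test. The number of falls was 19 without replicate 1 of D0 and 21 without replicate 5 of D0. Fitted on the 11 exposed arrays alone, 28 of the 81 kept their call, and Tnf, Per2, Prss30, Nr1d1, Gsta1 and Klf15 were among the 53 that did not.

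To show the regulatory sequence next to the values, RefSeq promoters (assembly GRCr8, from 250 bases before to 50 after the start of the gene) were searched on both strands for the E-box CACGTG and the D-box TTANGTAA, motifs that do not overlap each other. Of all 33469 promoters, 6.42% held the E-box and 2.24% the D-box. A promoter was matched for 20 of the 32 falls, of which 0 held the E-box and 2 the D-box (10.0%). It was matched for 30 of the 49 rises, of which 2 held the E-box (6.67%) and 0 the D-box. Among the 17 matched genes of both clock lists, 5 held the E-box (29.4%) and 1 the D-box (5.88%). The 4 DEGs with a match follow 5′ to 3′ on the strand of the gene, since they include the clock genes whose values follow, and capitals mark the motif. The E-box begins 191 bases before the start in Nr1d1 (chr10:84229405-84229704, minus strand) and 101 bases before it in Klf15 (chr4:124522765-124523064, plus strand). The D-box begins 192 bases before the start in Per2 (chr9:99496944-99497243, minus strand), and 35 and 22 bases before it in Nat8f3 (chr4:119803427-119803726, minus strand). A match describes these letters alone and does not show that a factor binds there.
Nr1d1: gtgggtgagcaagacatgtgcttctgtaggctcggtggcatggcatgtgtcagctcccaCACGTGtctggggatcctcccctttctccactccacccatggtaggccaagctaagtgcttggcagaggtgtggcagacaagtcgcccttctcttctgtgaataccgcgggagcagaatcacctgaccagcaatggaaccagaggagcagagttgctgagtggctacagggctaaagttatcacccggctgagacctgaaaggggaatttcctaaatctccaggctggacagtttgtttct
Klf15: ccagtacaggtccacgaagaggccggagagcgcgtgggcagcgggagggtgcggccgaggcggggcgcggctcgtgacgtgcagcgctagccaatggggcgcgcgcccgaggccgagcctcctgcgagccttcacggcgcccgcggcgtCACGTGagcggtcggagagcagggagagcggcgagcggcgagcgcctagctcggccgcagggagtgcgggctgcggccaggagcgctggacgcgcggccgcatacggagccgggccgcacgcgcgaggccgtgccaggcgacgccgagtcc
Per2: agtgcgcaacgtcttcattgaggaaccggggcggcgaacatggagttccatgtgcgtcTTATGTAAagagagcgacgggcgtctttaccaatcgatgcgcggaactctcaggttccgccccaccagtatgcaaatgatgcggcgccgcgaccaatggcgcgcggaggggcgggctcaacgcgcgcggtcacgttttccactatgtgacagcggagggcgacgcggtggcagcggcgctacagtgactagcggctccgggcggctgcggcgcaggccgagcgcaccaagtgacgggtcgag
Nat8f3: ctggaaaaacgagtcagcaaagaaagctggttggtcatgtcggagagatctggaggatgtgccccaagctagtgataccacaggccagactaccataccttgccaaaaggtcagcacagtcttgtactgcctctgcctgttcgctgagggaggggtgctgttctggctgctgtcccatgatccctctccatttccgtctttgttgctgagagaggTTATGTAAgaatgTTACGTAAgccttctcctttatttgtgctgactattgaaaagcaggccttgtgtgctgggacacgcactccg

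Among inflammatory mediators, Tnf, the cytokine that activates endothelium and leucocytes, fell 2.47-fold. Its log2 signals were 8.42, 8.15, 8.39, 7.74 and 8.58 on D0 and 6.48, 6.53, 7.44, 7.17, 7.32 and 6.75 on D28. The groups did not overlap, and the difference was -1.31 ± 0.22 (SE, n = 5 and 6, adjusted p = 0.00446 by limma). In the control rats the difference was -0.51 (adjusted p = 0.299). Exposed lungs had stood 1.06 above controls on D0 and stood 0.26 above them on D28. Tnf was 1 of 23 cytokines measured that was called, and 16 of the 23 had negative differences, with a median of -0.21 and none over-expressed.

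Sele, the selectin by which endothelium catches rolling leucocytes, had signals of 5.26, 5.47, 6.22, 5.58 and 5.07 on D0 and from 3.58 to 5.16 on D28, with a median of 4.00. The ranges overlapped by the highest D28 array alone, and the fall of 1.37 ± 0.30 (adjusted p = 0.0385) was called in 2 of the 11 fits that left out 1 exposed array. It was the only one called of 20 endothelial markers, whose median difference was 0.00. Ccl4, a chemokine for monocytes and T cells, ran from 9.56 to 10.64 on D0 and from 8.93 to 9.52 on D28. It fell by 0.72 ± 0.15 (adjusted p = 0.0309), and the call was kept in 4 of those 11 fits. Bcl3, a co-regulator of NF-kB target genes, fell by 0.66 ± 0.14 (adjusted p = 0.03, called in 2 of the 11 fits). In controls, Sele ran from 3.95 to 4.63 on D0 and from 2.78 to 4.53 on D28. Control arrays of Ccl4 ran from 9.18 to 9.66 on D0 and from 9.03 to 9.28 on D28. Those of Bcl3 ran from 8.70 to 9.11 on D0 and from 8.01 to 8.77 on D28.

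The other CC chemokines did not pass the test. Of 20 measured, 15 had negative differences and their median was -0.23. Ccl2, the main monocyte chemoattractant, differed by -0.58 (adjusted p = 0.676) and Ccl7, its neighbour with a similar role, by -0.79 (adjusted p = 0.468). Replicate 4 of exposed D28 was highest of its group for both, at 12.39 for Ccl2 and 9.89 for Ccl7. The other D28 arrays ran from 10.54 to 11.39 for Ccl2 and from 7.93 to 8.86 for Ccl7. Replicate 4 of exposed D0 was lowest of its group for both, at 11.13 and 8.64. Of 16 other chemokines, of the CXC, CX3C and C families, Cxcl14 alone was called, and it rose by 0.67 ± 0.12 (adjusted p = 0.00945). Cxcl14 is made by epithelium and fibroblasts in resting tissue, and its arrays did not overlap, with 8.58 to 9.11 on D0 and 9.33 to 9.81 on D28.

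Mbl1, a mannose-binding lectin that starts the lectin pathway of complement, had signals of 6.58, 6.31, 6.40, 6.14 and 6.14 on D0 and from 4.49 to 5.18 on D28. The fall was 1.38 ± 0.26 (adjusted p = 0.0141), and controls differed by -0.71 (adjusted p = 0.213). C9, the pore-forming component of complement, fell by 0.81 ± 0.18 (adjusted p = 0.0469), a call kept in 1 of the 11 fits that left out 1 exposed array.

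Prss30 fell in the exposed lungs, and this change differed from that of controls. It encodes a serine protease, stood in the mast cell list, and its probe lies at chr10:13226073-13226132 (build rn4). Its signals were 9.97, 10.08, 10.38, 9.80 and 10.21 on D0 and ran from 8.01 to 9.58 on D28, with a median of 8.43. The control arrays lay between 7.34 and 7.79 on D0 and between 7.27 and 7.82 on D28, below every exposed array of either day. The fall in the exposed lungs was 1.51 ± 0.19, or 2.84-fold (adjusted p = 0.000192). In controls D28 minus D0 was 0.05, slightly above 0 and not called, and the difference between both changes was -1.55 (adjusted p = 0.0229). Relative to controls the excess was 2.56 on D0 and 1.01 on D28, both called. Of the 13 mast cell genes measured, Prss30 was the only one called, 3 had negative differences, and the summed signal of the list was 11.89 to 12.28 on D0 and 11.84 to 12.11 on D28.

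Falls were also found among epithelial and detoxification genes. Krt7, a keratin of simple epithelium, had signals of 14.00, 13.55, 13.51, 13.93 and 13.81 on D0 and of 12.65 to 13.21 on D28. The fall of 0.89 ± 0.11 (adjusted p = 0.00023) was called in every alternative tried, while controls differed by -0.50 (adjusted p = 0.0282), under the fold change limit. Krt7 was the only one called of 14 type I pneumocyte markers, which had a median difference of 0.05.

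Gsta1, which conjugates glutathione to toxic electrophiles, had signals of 14.55, 14.14, 14.08, 14.04 and 14.20 on D0 and of 13.41 to 13.77 on D28. It fell by 0.65 ± 0.10 (adjusted p = 0.00195), with -0.08 in controls (adjusted p = 0.772). The difference between both changes was not called (adjusted p = 0.344). Gsta1 was the only one called of 23 antioxidant and glutathione genes, but 20 of the 23 had negative differences, with a median of -0.28 in exposed and -0.05 in control lungs. Sod2, the mitochondrial superoxide dismutase, was next with -0.52 (adjusted p = 0.0711), and Hmox1, which degrades heme, differed by -0.43 (adjusted p = 0.663). Cyp2e1, a cytochrome P450 of xenobiotic metabolism, fell by 0.91 ± 0.19 (adjusted p = 0.0282), and it fell by 1.02 in controls as well (adjusted p = 0.00523).

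Of the 14 secretory airway genes measured, 12 had negative differences, with a median of -0.40 beside -0.15 in controls. Only Muc5b, a gel-forming mucin, was called. Its signals were 4.38, 4.10, 3.72, 4.01 and 4.18 on D0, with 3 of 5 arrays well above background, and 2.08 to 3.24 on D28, with 0 of 6, so that only a bound of at least 1.33-fold lower can be given (adjusted p = 0.035). The call was kept in 3 of the 11 fits that left out 1 exposed array. Muc4 differed by -1.20, Agr2, which helps to fold mucins, by -0.69 and Scgb1a1 by -0.06, and none of these was called.

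Further falls concerned genes with other roles. Mro had signals of 8.33, 7.78, 7.70, 7.70 and 7.89 on D0 and of 5.92 to 6.64 on D28, a fall of 1.62 ± 0.30 (adjusted p = 0.0112). The control difference was 0.03, not in the direction of a fall, but the difference between both changes was not called. The exposed fall was called in every alternative tried. Rasgef1c, an exchange factor for Ras-type GTPases, had 4.73 to 5.57 on D0 and was well above background on 0 of 6 arrays of D28, which gave at least 2.44-fold (adjusted p = 0.00956). Timp3, an inhibitor of metalloproteinases bound to the matrix, fell by 0.87 ± 0.15 (adjusted p = 0.00416). Its control arrays were lower on D28 too, at 11.64 to 11.89 on D0 and 10.96 to 11.60 on D28. Some falls were of a similar size in controls. Cys1, a protein of the primary cilium, fell by 1.39 and by 1.32 in controls and kept its call in 3 of the 11 fits that left out 1 exposed array, while Nat8f3 fell by 0.87 and 1.15, and Wee1, the kinase that holds cells before mitosis, by 0.68 and 0.76. Nat8 fell by 1.33 (adjusted p = 0.00828), with -0.94 in controls (adjusted p = 0.0512). Carmil3, Gjd2 and LOC102553699 were called near background, where no fold can be given.

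**Figure D1:**
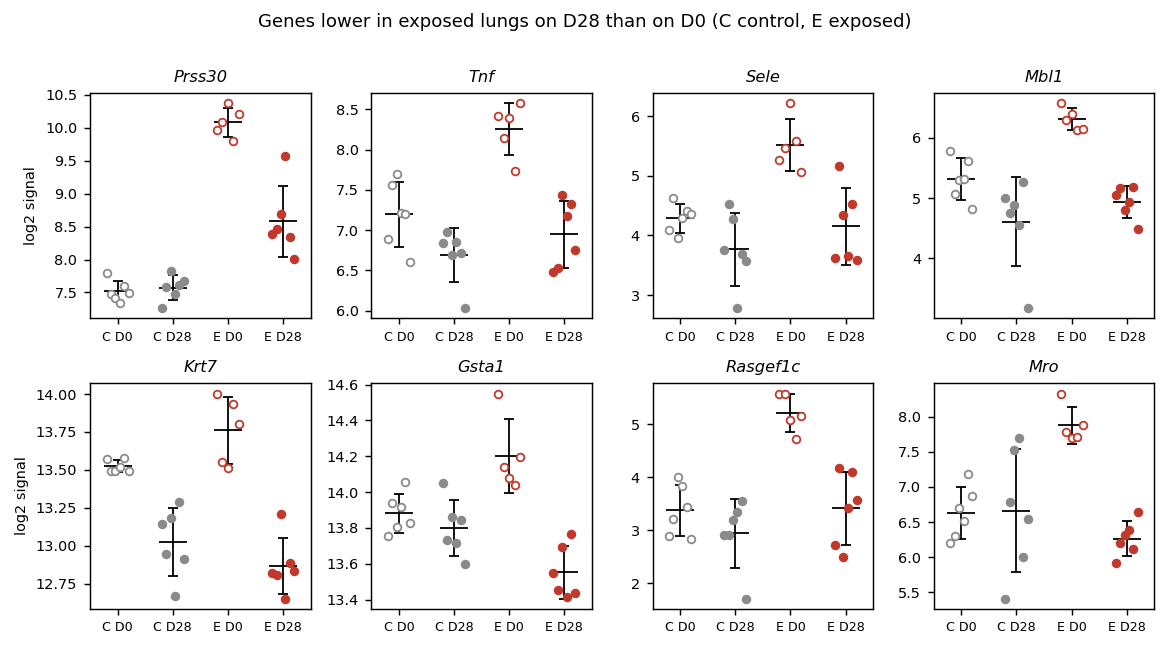
Log2 signal on each array (y axis) for 8 genes under-expressed in exposed lungs on D28; grey marks are control rats, red marks exposed rats, open marks D0 and filled marks D28, with the mean ± SD as black lines. The exposed D28 arrays of Tnf lie between 6.48 and 7.44, all below the exposed D0 arrays, whereas for Sele the highest D28 array, at 5.16, reaches into the D0 range.

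Among clock genes, Cry1 and Per2 fell and Nr1d1 and Npas2 rose in the exposed lungs. Cry1, a repressor of ARNTL and CLOCK (probe at chr7:20708985-20709044, rn4), had signals of 9.98, 9.76, 9.73, 9.57 and 9.86 on D0 and from 8.09 to 8.75 on D28, with a median of 8.20. It fell by 1.47 ± 0.14, or 2.77-fold (adjusted p = 3.62e-06), whereas controls differed by 0.20 (adjusted p = 0.537), and the difference between both changes was -1.67 (adjusted p = 0.000232). Exposed lungs thus lay 0.81 above controls on D0 and 0.87 below them on D28, both called.

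Nr1d1, which encodes the repressor REV-ERB alpha (probe at chr10:87543165-87543519, rn4), moved in opposite directions in exposed and control rats. Its exposed signals were 7.05, 7.09, 6.86, 6.11 and 5.55 on D0 and 7.40 to 9.75 on D28, with a median of 8.64. It rose by 2.07 ± 0.37, or 4.21-fold (adjusted p = 0.00828), and fell by 2.42 ± 0.36 in controls (adjusted p = 0.000782). The difference between both changes was 4.49 (adjusted p = 0.000232). Within the 4 slides the rise was 1.06 to 3.15, where the lack of overlap between the days fixes its direction.

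Per2, a repressor that partners CRY proteins, fell in both sets of rats. Its exposed signals were 10.52, 10.20, 10.24, 9.89 and 9.89 on D0 and 8.15 to 9.58 on D28, a fall of 1.52 ± 0.23 (adjusted p = 0.00132), beside a fall of 2.37 in controls. Npas2, an activator that can stand in for CLOCK, rose by 2.15 ± 0.19 (adjusted p = 3.58e-06), from 5.72 to 6.67 on D0 to between 7.66 and 8.71 on D28, beside a rise of 2.78 in controls.

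Several clock outputs changed in controls and not by the test in exposed lungs. Dbp, the PAR bZIP factor, fell by 4.13 in controls (adjusted p = 2.22e-07). In exposed lungs its signals were 13.15, 13.04, 12.86, 12.34 and 12.18 on D0 and 11.13 to 13.72 on D28, a difference of -0.22 ± 0.35 (adjusted p = 0.907), and the change differed from the controls by 3.91 (adjusted p = 0.000519). The same test was passed by Nr1d2, the relative of Nr1d1, with 0.32 in exposed and -1.48 in control lungs (adjusted p = 0.0126 for the difference). It was passed too by Rasd2, a Ras-like GTPase, with 0.24 and -1.73 (adjusted p = 0.00242). Arntl, the central activator, rose by 2.41 in controls, and its exposed difference of 0.58 (adjusted p = 0.613) was not shown to differ from that (adjusted p = 0.0877). Replicates 5 and 6 of exposed D28 had the 2 highest Dbp signals of their group, 13.66 and 13.72, and the lowest Arntl signals, 8.10 and 7.55.

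Over 13 genes of the REV-ERB and PAR bZIP branch, 1 fell and 1 rose in exposed lungs, with a median difference of -0.21, and in controls 8 fell and 1 rose, with a median of -1.44. Klf15, a clock-linked and glucocorticoid-induced factor, had signals of 9.94, 10.27, 10.19, 9.43 and 9.62 on D0 and of 10.46 to 11.49 on D28. Its control arrays ran from 11.33 to 11.76 on D0, above every exposed array of D0, and from 10.93 to 11.96 on D28. In exposed lungs Klf15 rose by 1.08 ± 0.20 (adjusted p = 0.0095), with -0.20 in controls, but the difference between both changes was not called (adjusted p = 0.2). It was the only one called of 20 glucocorticoid-induced genes, of which Fkbp5 differed by 0.06 and Zbtb16 by 0.78.

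**Figure D2:**
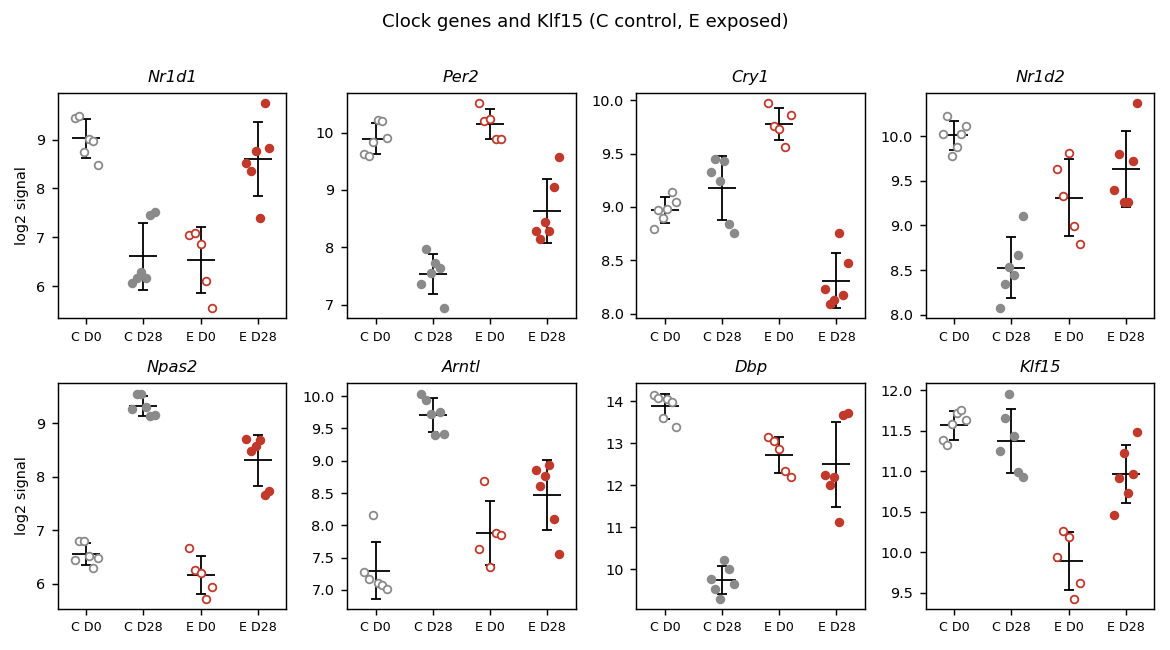
Log2 signal on each array (y axis) for 8 genes of the clock and its outputs; grey marks are control rats, red marks exposed rats, open marks D0 and filled marks D28, with the mean ± SD as black lines. From D0 to D28, Nr1d1 rose by 2.07 in exposed and fell by 2.42 in control rats, while Npas2 rose in both.

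Of the matrix genes that rose in exposed lungs, Col1a1, Col3a1, Eln and Lox rose in controls as well. Col1a1, the main chain of type I collagen, had exposed signals of 10.01, 10.09, 10.34, 10.74 and 9.74 on D0 and of 11.02 to 11.60 on D28. It rose by 1.20 ± 0.16 (adjusted p = 0.000265) and by 1.60 in controls. Col3a1, type III collagen, had 11.30, 11.41, 11.56, 11.69 and 10.90 on D0 and 12.20 to 12.61 on D28, and it rose by 1.00 ± 0.12 (adjusted p = 0.000192) and by 1.29 in controls. These 2 were the only ones called of 20 collagen genes, of which 3 had negative differences, and the median over the 20 was 0.28 in exposed and 0.30 in control lungs.

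Eln, which encodes elastin, the recoil protein of the lung, had exposed signals of 9.76, 9.62, 9.49, 10.17 and 9.52 on D0 and of 10.63 to 11.29 on D28. It rose by 1.30 ± 0.15 (adjusted p = 7.31e-05), beside a rise of 2.37 in controls. The difference between both rises, -1.07, was not called (adjusted p = 0.082), but exposed lungs on D28 stood 1.14 below controls (adjusted p = 0.000288). Lox, which cross-links collagen and elastin, rose by 0.70 ± 0.09 (adjusted p = 0.000192), from 8.81 to 9.25 on D0 to between 9.50 and 9.84 on D28, and by 0.75 in controls. Its relative Loxl2 rose by 0.64 (adjusted p = 0.0188), a call kept in 7 of the 11 fits that left out 1 exposed array. Control arrays of Loxl2 ran from 7.14 to 7.49 on D0 and from 7.38 to 7.95 on D28. Eln, Lox and Loxl2 were the 3 called of 21 matrix and fibroblast genes. Of the 21, 6 had negative differences, with a median of 0.29 in exposed and 0.17 in control lungs.

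Among secreted modulators of signalling, Hhip and Sfrp2 rose with no overlap between the days. Hhip, which binds and holds back hedgehog ligands (probe at chr19:29840368-29840427, rn4), had signals of 7.39, 7.24, 7.25, 7.10 and 7.03 on D0 and of 8.54 to 10.15 on D28. Every D28 array was above every D0 array, and the rise was 2.16 ± 0.20, or 4.48-fold (adjusted p = 3.62e-06), beside 1.51 in controls (adjusted p = 0.000189). Sfrp2, a secreted protein that binds Wnt ligands, had 6.21, 6.44, 6.41, 6.26 and 6.29 on D0 and 7.28 to 7.61 on D28, a rise of 1.14 ± 0.17 (adjusted p = 0.00106), with 0.57 in controls (adjusted p = 0.108).

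Spon2, a matrix protein that binds bacteria, had 5.81, 5.92, 5.55, 5.80 and 5.35 on D0 and 6.73 to 8.003 on D28. It rose by 1.56 ± 0.22 (adjusted p = 0.000507), with 0.71 in controls (adjusted p = 0.124). Control arrays of Spon2 ran from 6.71 to 7.30 on D0, above every exposed array of D0, and from 7.17 to 8.29 on D28. Vegfd, a growth factor for lymphatic vessels, rose by 1.07 and the ferritin receptor Scara5 by 1.13, the latter beside 1.05 in controls.

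Hgd encodes homogentisate dioxygenase of tyrosine breakdown (probe at chr11:64876550-64876609, rn4). Its signals were 5.83, 6.20, 6.11, 5.42 and 5.65 on D0 and 7.53 to 8.24 on D28. The rise of 1.98 ± 0.17, or 3.94-fold (adjusted p = 3.58e-06), stood beside 0.67 in controls (adjusted p = 0.0599), and the difference between both changes was not called (adjusted p = 0.061). Exposed lungs lay 1.70 below controls on D0 and 0.39 below them on D28, the latter not called.

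The largest rise was that of LOC102550580, an uncharacterised locus, with 1.96 to 4.20 on D0 (2 of 5 arrays well above background) and 5.06 to 6.46 on D28, a difference of 2.55 ± 0.35 (adjusted p = 0.000507) beside 1.65 in controls. LOC102551263, well above background on 1 of 5 arrays of D0 and 5 of 6 of D28, differed by 2.06 (adjusted p = 0.000192).

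Dnase2b, an acid nuclease, had 3.93, 4.81, 4.86, 3.98 and 3.15 on D0, with 2 of 5 arrays well above background, and 5.35 to 6.90 on D28, with 6 of 6. It rose by 1.96 ± 0.31 (adjusted p = 0.00199), with 0.03 in controls, but the difference between both changes was not called. Control arrays of Dnase2b ran from 5.40 to 6.74 on D0 and from 5.44 to 6.21 on D28, all above the exposed arrays of D0. Grin2c, a subunit of the NMDA receptor, had 8.77, 8.83, 8.88, 8.92 and 8.55 on D0 and 9.46 to 9.92 on D28. It rose by 0.95 ± 0.09 (adjusted p = 8e-06), with 0.13 in controls (adjusted p = 0.563), and the difference between both changes was 0.81 (adjusted p = 0.0126). Kcnmb2, a subunit of calcium-activated potassium channels, rose by 1.28 ± 0.17 (adjusted p = 0.000308) and by 0.87 in controls.

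**Figure D3:**
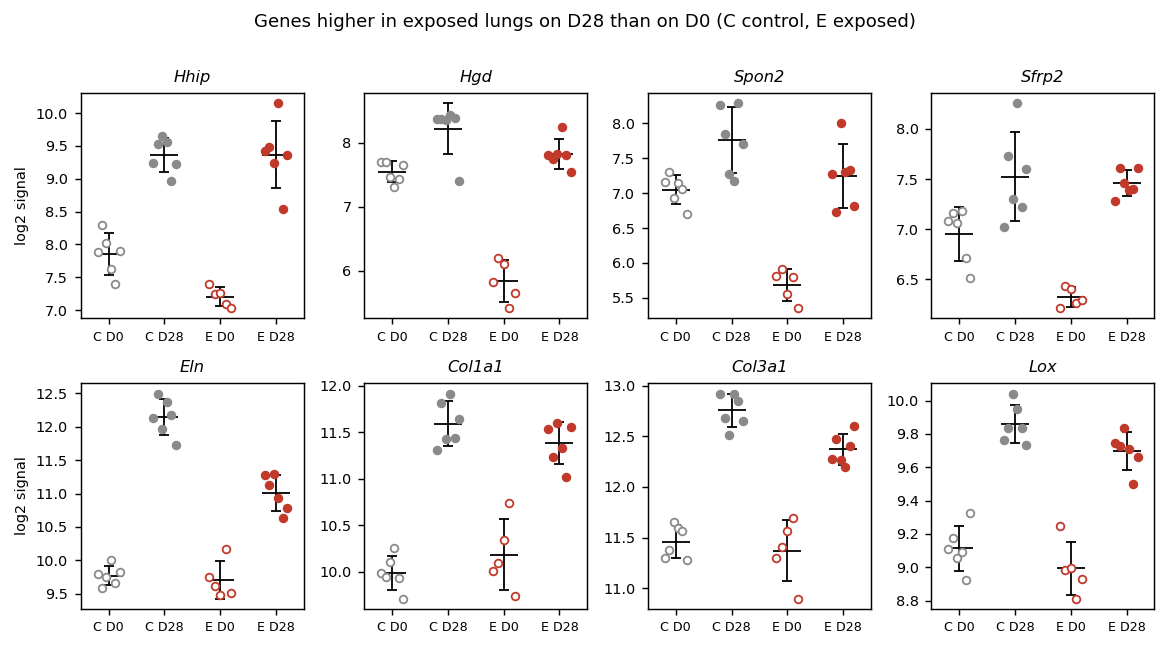
Log2 signal on each array (y axis) for 8 genes over-expressed in exposed lungs on D28; grey marks are control rats, red marks exposed rats, open marks D0 and filled marks D28, with the mean ± SD as black lines. The exposed D28 arrays of Hhip lie between 8.54 and 10.15, all above the D0 arrays, and Eln on D28 is lower in exposed than in control rats.

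Setting the exposed change beside the control change asked which part of it also took place in rats that had breathed filtered air, and both changes share no array. Of the 32 falls, 28 had negative differences in controls, 7 were called there in the same direction and 0 in the opposite one, with medians of -0.96 in exposed and -0.51 in control lungs. Of the 49 rises, 44 were positive in controls, 19 were called in the same direction and 1, Nr1d1, in the opposite one, with medians of 0.95 and 0.60. In controls, 51 genes fell (0.221%) and 89 rose (0.386%) over all genes. Since the 81 were chosen for their exposed change, the smaller control medians are a description and no test. The difference itself was called for 7 genes (0.0304%), of which Cry1 and Prss30 were among the exposed falls and Nr1d1 and Grin2c among the exposed rises, with Dbp, Nr1d2 and Rasd2 beyond them.

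**Figure D4:**
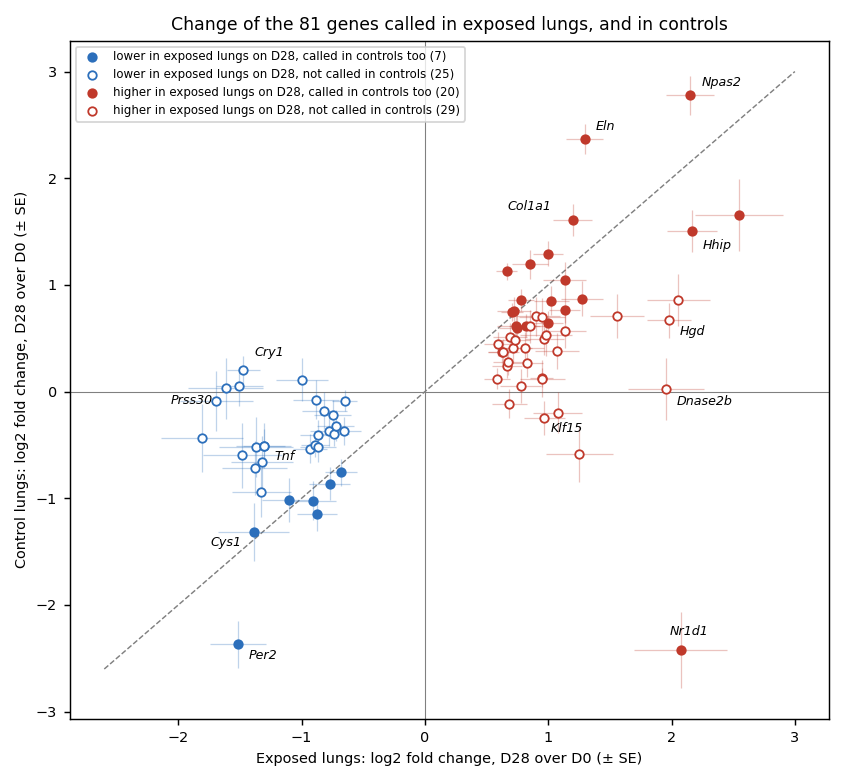
Change from D0 to D28 on the log2 scale, in exposed rats (x axis) and in control rats (y axis), for the 81 DEGs of the exposed lungs, with ± SE bars and a dashed line where both are equal; filled marks were called in controls too. Of the 49 rises, 44 lie above 0 on the y axis, and Nr1d1 lies far below it at -2.42.

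Mitosis genes, of which 16 had been over-expressed against controls on D0, gave no DEG between D0 and D28 in exposed lungs. Both comparisons use the same exposed arrays of D0, so a high D0 level enters both. On D28, 25 of the 27 measured were still above controls, with a median of 0.34 and 0 called. All 27 mitosis genes measured had negative differences in exposed lungs, with a median of -0.40 on the log2 scale, while the median in controls was 0.25 and that of all genes was -0.01. The mean log2 signal over the list was 7.43 ± 0.10 (SD, n = 5) on D0 and 7.05 ± 0.19 (SD, n = 6) on D28, beside 6.49 ± 0.34 and 6.75 ± 0.26 in controls. Its range was 7.28 to 7.53 on D0 and 6.82 to 7.26 on D28, with no overlap. Mki67, the proliferation marker, differed by -0.33 (adjusted p = 0.581), and Top2a, the topoisomerase of dividing cells, by -0.51 (adjusted p = 0.646). At an unadjusted p below 0.05, 10 of the 27 were lower and 0 higher, beside 3.88% lower and 3.82% higher over all genes. These genes are expressed together and are not independent. Of 26 DNA replication genes, 21 had negative differences with a median of -0.10.

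Which effects of exposure remained was read from the exposure contrasts of each day, which share arrays with the change in exposed lungs but not with each other. On D0, 252 genes were over-expressed (1.09%) and 160 under-expressed (0.695%) against controls, and on D28 these were 112 (0.486%) and 62 (0.269%). Of the 252, 240 were still above controls on D28, where 48.8% of all genes were, and 69 were called, with a median effect of 0.95 on D0 and 0.50 on D28. Of the 160, 149 were still below controls, where 51.2% of all genes were, and 18 were called, with medians of -0.76 and -0.37. The median over genes of the D28 effect divided by the D0 effect was 0.55 for the former and 0.48 for the latter, and the choice of genes by their D0 effect makes such ratios low.

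Called on both days in the same direction were 87 genes, 69 above and 18 below controls. For 36 of them (41.4%, against 51.2% of all genes tested) the 95% interval of D28 minus D0 in exposed lungs lay within the fold change limit, and these were taken as genes that stayed. A further 4 were DEGs of the exposed lungs, Prss30, Fibin, Antxr1 and Kcnmb2, and for 47 neither could be said.

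Mmp7, a metalloproteinase of injured epithelium, had exposed signals of 8.71, 8.63, 8.62, 8.002 and 8.32 on D0 and of 7.84 to 8.89 on D28, with a median of 8.55. The difference was 0.04, with an interval from -0.49 to 0.57, and exposed lungs were above controls by 1.60 on D0 and 1.49 on D28. Serpine2, an inhibitor of serine proteases, differed by 0.01 and was above controls by 1.08 and 0.62. The complement component C3 had a difference of -0.22, with an interval from -0.55 to 0.11, and was above controls by 0.84 and 0.72. Retnlb, a resistin-like protein of goblet cells, differed by -0.04, with 3 of 5 and 4 of 6 exposed arrays well above background and none of the 12 control arrays. On the lower side, Rnase3, an eosinophil-type ribonuclease, differed by -0.11 and Ephx4, of the epoxide hydrolase family, by 0.09, and both were 1.00 below controls on D28. The other staying genes of largest D0 effect were LOC689757, with a difference of -0.22, LOC689770 with -0.12, Sapcd2 with -0.10, the phosphate transporter Slc34a3 with 0.27 and RGD1561327 with -0.11, the last on 3 of 5 and 3 of 6 exposed arrays well above background.

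The genes farthest from controls did not meet that interval. Orm1, an acute-phase glycoprotein, had 10.22, 9.64, 9.73, 7.71 and 9.43 on D0 and 7.80 to 9.07 on D28, a difference of -0.65 ± 0.56 with an interval from -1.81 to 0.50. It was above controls by 3.56 on D0 and 3.62 on D28. The D28 excess includes replicate 6 of control D28 at 2.37, while the other control arrays of that day ran from 4.69 to 6.53. Retnla, made by alternatively activated macrophages, had 11.26 to 13.15 on D0 and 11.69 to 12.89 on D28, with an interval from -0.90 to 0.37, and was above controls by 3.25 and 2.64. Spp1, the osteopontin of macrophages, had an interval from -0.86 to 1.28 and excesses of 2.20 and 2.13. Scn10a, a sodium channel of sensory neurons, had an interval from -0.49 to 0.95, and was well above background on all 11 exposed arrays and on 2 of the 12 control arrays.

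**Figure D5:**
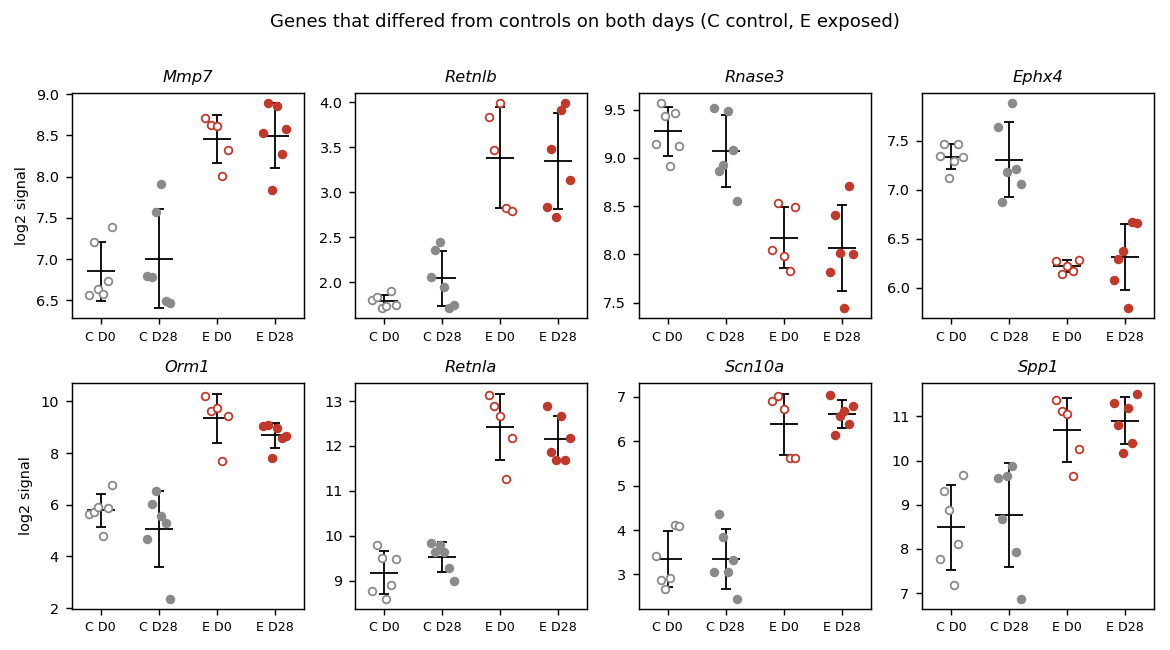
Log2 signal on each array (y axis) for 8 genes that differed from controls on both days; grey marks are control rats, red marks exposed rats, open marks D0 and filled marks D28, with the mean ± SD as black lines. Mmp7 in exposed rats runs from 8.002 to 8.71 on D0 and from 7.84 to 8.89 on D28, and Orm1 spreads from 7.71 to 10.22 on D0.

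Other gene lists held no DEG of the exposed lungs, where 0.352% of all genes were DEGs, so few would be found in lists of this size. Of 21 acute-phase genes, 15 had negative differences with a median of -0.16, and 11 were above controls by the test on D0 and 6 on D28. Lcn2, the iron-scavenging lipocalin, differed by -0.76 ± 0.28 (adjusted p = 0.426), and it was called without replicate 4 of exposed D28, with a difference of -1.01. Of 25 complement genes, 17 had negative differences (median -0.09), but that list did not hold the DEGs Mbl1 and C9. Of 23 interferon-stimulated genes, 17 had negative differences (median -0.10). Of 15 heat shock genes, 14 had negative differences (median -0.22, against -0.16 in controls), and Hspa1a, at 13.61 on 1 array of D0 and 8.94 to 9.82 on the others, differed by -1.87 (adjusted p = 0.255).

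No gene of the neutrophil, resident macrophage, T and NK cell or B and plasma cell lists was called. Since 0.352% of all genes were DEGs, the lack of a call says little about lists of this size. In the mast cell list Prss30 alone was called, while 10 of the 13 genes had positive differences, with a median of 0.16. The median difference was -0.20 over 18 neutrophil genes, -0.14 over 15 genes of resident macrophages, -0.09 over 22 of T and NK cells and -0.08 over 15 of B and plasma cells. The summed signal of the neutrophil list was 14.36 to 15.83 on D0 and 14.90 to 16.07 on D28. Smooth muscle genes, of which 12 of 12 had positive differences, had a median of 0.13, and 7 mesothelial genes a median of 0.34. Skeletal muscle genes, which lung parenchyma lacks, had a median of 0.53 over 12 genes in exposed and of -1.12 in control lungs, and their summed signal in exposed lungs was 9.86 to 10.16 on D0 and 9.43 to 13.88 on D28. Replicate 1 of exposed D28 carried that rise: its mean signal over the list was 9.48, while the other D28 arrays lay between 4.80 and 5.81, and without it the exposed median was -0.15. Replicate 5 of control D0 stood at 9.38, and without it the control median was -0.48. No skeletal muscle, smooth muscle or mesothelial gene was called, and the part of such tissue in the rises was not tested.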

How the data were processed

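RNA of 23 lungs (1 rat and 1 array each) was hybridised to 1-colour Agilent arrays. The deposited scanner files hold fluorescence intensity per spot, made by the authors with Agilent Feature Extraction 11.0.1.1 (22 arrays, per the file headers) or 12.0.1.1 (1 control array of D28). The processed signal, already corrected for background, was quantile normalised between arrays and put on a log2 scale. Probes were kept if at least 5 arrays put them over the 95th percentile of negative control spots, and those of a gene were averaged, which left 23029 genes. The deposited table of all arrays, quantile-normalised intensity on a linear scale, served as an alternative. 1 limma model (R 4.3.3, limma 3.58.1) held a mean for each of the 4 groups, with 19 residual degrees of freedom and no batch term, since the methods of the study name a batch correction but no batches. Probe positions in the files are of build rn4, and promoters are of GRCr8.

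Samples were grouped by title. 1 called gene is not reported here. Genes were named by rule: the 10 largest falls and 10 largest rises with non-overlapping arrays, well above background throughout either group and with symbols other than LOC, RGD or AABR, the genes whose change differed from controls, the 10 staying genes with the largest D0 effect, called or defining members of each gene list, and a fixed set. C9, Timp3, Bcl3, Wee1, Nat8f3, Sod2, Muc4, Agr2, Vegfd, Scara5, Carmil3, Gjd2, LOC102553699, LOC102550580, LOC102551263, Fibin and Antxr1 were chosen after their values were seen. The members and gene lists were chosen with earlier results of these data known. Slides were checked as a block, and alternatives in background correction, scaling, filter, probe choice, variance model, weights, pairing and samples were run. Each sample is another rat, so p-values measure the spread between rats, and 5 and 6 arrays limit the precision.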

Additional observations from a re-analysis of the deposited data

Results flagged for a closer look

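The change from D0 to D28 differed between exposed and control rats for 7 genes by the limma test of that difference. Exposed minus control change was 4.492 for Nr1d1, 3.906 for Dbp, 1.974 for Rasd2, 1.805 for Nr1d2, 0.8138 for Grin2c, -1.674 for Cry1 and -1.554 for Prss30.

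In 178 sets of 1 gene in 1 exposed group, a single array stood far from its group 9 times. Chance would give about 1 in 20 for independent sets, but these sets share arrays and hold genes expressed together. That rate therefore cannot show whether chance gave them, which was not tested. Replicate 4 of exposed D0 gave 3 of the 9 and replicate 4 of exposed D28 gave 3. The arrays below are listed as a description. Replicate 4 of exposed D0 was lowest for S100a8 (10.08, next 11.55) and Cxcl2 (9.187, next 10.91), and highest for Isg15 (12.2, next 11.61). Replicate 4 of exposed D28 was highest for Scd (14.51, next 12.37), Cxcl2 (11.33, next 10.17) and LOC689757 (7.079, next 6.533). Replicate 1 of exposed D28 was highest for Acta1 (9.844, next 7.337) and lowest for Marco (1.916, next 3.155), a probe near background there. Replicate 3 of exposed D0 was highest for Hspa1a (13.61, next 9.823).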

How the results depend on the processing

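No setting turned the sign of any of the 81 DEGs, and 20 of them (4 falls and 16 rises) were called in every setting in which they were tested. Called in all 11 fits that left out 1 exposed array were 49 (16 falls and 33 rises). The number of DEGs of the exposed lungs was 28 when only the exposed arrays were fitted and 128 with the slide as a block, and it ran from 56 to 89 when 1 array was left out. Falls and rises numbered 8 and 20 with the exposed arrays alone, 61 and 67 with the slide block, 61 and 56 with array quality weights, 33 and 79 with the brightest probe of each gene and 21 and 37 after normexp. In controls, the number of DEGs ran from 87 (without replicate 2 of D28) to 199 (without replicate 1 of D28), with 90 and 93 without replicates 1 and 4 of D0. The genes whose change differed between exposed and control rats numbered 13 with the filter on probes well above background, 12 with an intensity trend and robust estimation and 16 after normexp background correction, and 6 to 11 when 1 array was left out (11 without replicate 4 of exposed D28). Genes called on both days numbered 54 after normexp and 149 with no fold change limit, and 65 to 94 when 1 array was left out, and genes that stayed numbered 86 with no fold change limit and 27 to 39 when 1 array was left out. Replicate numbers did not pair the rats: the correlations of deviations between exposed rats of the same number were -0.154, 0.148, -0.301, 0.0287 and -0.00518. With the replicate block, 67 DEGs were called in exposed lungs, 123 in controls and 5 for the difference. The cause of these shifts was not tested. The scan day equals the slide and was not run apart. Leaving single arrays out of the skeletal muscle list was chosen after the values were seen. Dim probes limit Muc5b, Rasgef1c, Retnlb, Carmil3, Gjd2 and LOC102553699, and the D0 side of Dnase2b, LOC102550580 and LOC102551263.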
